A study of Mus musculus with 4 samples.

Results

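The SOX transcription factors described here are 10 genes of the family, *Sox1*, *Sox2*, *Sox3*, *Sox4*, *Sox9*, *Sox11*, *Sox12*, *Sox13*, *Sox15* and *Sox21*, found in the deposited tables by gene symbol. These genes and the gene lists used below were chosen with earlier results of these data known. All 10 had a row among the 19645 features of each table, and 18 of the 20 SOX family genes of the mouse had one. RNA came from mouse embryonic stem cells (ESCs), the self-renewing cells of the early embryo, in 2 libraries of wild-type (WT) ESCs and 2 libraries of *Bmal1* knockout (KO) ESCs. *Bmal1*, listed in the tables as *Arntl*, encodes a core transcription factor of the circadian clock. The KO line was 1 clone picked after CRISPR/Cas9 cutting at the start codon, with a short frame-shifting deletion, and both lines were kept on gelatin with serum and leukaemia inhibitory factor (LIF), without feeder cells. Genotype and clone cannot be told apart in such a design. The study calls the libraries of each genotype biological replicates, whereas their labels name no separate cultures, so p-values measure only the spread between these libraries, which may be technical. The values are FPKM, fragments counted per kilobase of transcript and scaled to the mapped fragments of the library, and can therefore be compared between genes as well as between libraries.

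SOX proteins bind DNA through a high-mobility-group (HMG) box related to that of the testis-determining factor SRY, and they act with partner factors such as POU proteins. Within the family, SoxB1 (*Sox1*, *Sox2*, *Sox3*) are activators of the pluripotent epiblast and of neural progenitors, and the SoxB2 gene *Sox21* encodes a factor that counteracts them. SoxC (*Sox4*, *Sox11*, *Sox12*) act in neuronal maturation and many other progenitors, SoxD (*Sox13*) proteins lack a transactivation domain of their own, SoxE (*Sox9*) drive cartilage, neural crest and glia, and SoxG is *Sox15* alone. In ESCs, SOX2 works with POU5F1 on composite elements, where a SOX motif stands beside the octamer motif of POU proteins, whereas *Sox1* is the classical marker of the first neural cells.

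The 3 SoxB1 genes were nearly alike where they bind DNA. Over the 237 coding bases of the HMG box, *Sox1* and *Sox2* were identical at 89.5% of bases and 96.2% of the encoded residues, *Sox1* and *Sox3* at 89.0% and 89.9%, and *Sox2* and *Sox3* at 87.8% and 91.1%. The likeness was not particular to SoxB1. *Sox21* of SoxB2 shared 87.8% of bases and 92.4% of residues with *Sox2*, 86.9% and 89.9% with *Sox1*, and 88.2% and 88.6% with *Sox3*. *Sox4* and *Sox11* of SoxC shared 89.5% of bases and 93.7% of residues, while *Sox1* and *Sox4* shared 67.5% of bases. A 60-base stretch of the box is printed from the GENCODE vM21 transcripts of build GRCm38, 5′ to 3′ on the coding strand, because it lets the members whose levels are compared here be seen side by side. Capitals mark bases that differ from *Sox2*, and the stretch covers codons 45 to 64 of *Sox2*, 53 to 72 of *Sox1* and 146 to 165 of *Sox3*.
Sox2: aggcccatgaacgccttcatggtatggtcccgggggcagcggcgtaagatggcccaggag
Sox1: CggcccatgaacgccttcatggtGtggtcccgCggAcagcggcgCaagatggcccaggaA
Sox3: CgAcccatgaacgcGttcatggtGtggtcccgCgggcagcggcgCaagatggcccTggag
Sox21: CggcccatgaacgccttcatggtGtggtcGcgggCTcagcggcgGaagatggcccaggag
Sox4: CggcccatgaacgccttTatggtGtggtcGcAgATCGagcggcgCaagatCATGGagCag
Sox11: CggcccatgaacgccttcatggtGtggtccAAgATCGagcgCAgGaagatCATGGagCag
Sox12: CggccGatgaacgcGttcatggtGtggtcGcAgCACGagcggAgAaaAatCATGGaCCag
Sox15: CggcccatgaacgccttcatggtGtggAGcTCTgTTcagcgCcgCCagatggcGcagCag
*Sox1* and *Sox21* each differed from *Sox2* at 6 of these 60 bases and *Sox3* at 7, against 14 for *Sox15*, 16 for *Sox4*, 17 for *Sox11* and 20 for *Sox12*. Despite this likeness, the longest run of identical coding sequence was 38 bases between *Sox1* and *Sox2*, 45 bases between *Sox1* and *Sox3*, 32 bases between *Sox2* and *Sox3* and 48 bases between *Sox4* and *Sox11*. A read longer than such a run holds a base that tells the pair apart, and the read length is not given in the sources used here.

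The levels of the members spread over 4 orders of magnitude. In WT, *Sox2* was far above all others at 286 ± 12.9 FPKM (mean ± SD, n = 2), followed by *Sox12* at 31.1 ± 4.34, *Sox4* at 9.35 ± 0.243, *Sox15* at 8.23 ± 0.946 and *Sox13* at 6.77 ± 1.55. *Sox11* (1.65 ± 0.0922 FPKM), *Sox3* (1.54 ± 0.171 FPKM) and *Sox1* (1.35 ± 0.0470 FPKM) came next, *Sox21* was at 0.375 ± 0.0261 FPKM and *Sox9* at 0.0152 ± 0.00647 FPKM. Neighbours in this order were separated in both WT libraries, except *Sox15* and *Sox13*, and *Sox11* and *Sox3*, whose libraries overlapped. In KO the order was the same but for *Sox1*, which lay between *Sox15* and *Sox13*, and there the libraries of *Sox11* and *Sox3* alone overlapped among neighbours. *Sox2* made up 81.2% and 83.9% of the summed FPKM of the 10 genes in the WT libraries and 77.3% and 78.6% in those of KO.

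**Figure D1:**
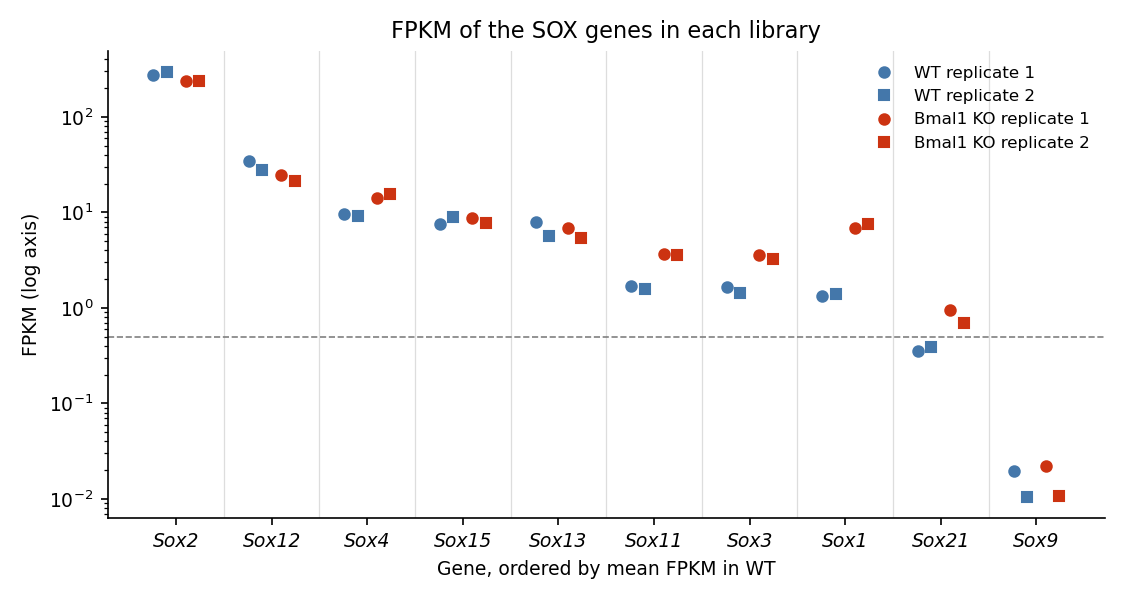
FPKM of the 10 SOX genes in each library on a log axis, genes ordered by their mean in WT, with blue for WT, red for *Bmal1* KO, circles for replicate 1 and squares for replicate 2; the dashed line is the mean of 0.5 FPKM that a gene needed to be tested. *Sox1*, *Sox3*, *Sox11*, *Sox4* and *Sox21* lie higher in both KO libraries than in both WT libraries, *Sox2* and *Sox12* lie lower, and *Sox15*, *Sox13* and *Sox9* overlap.

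KO was compared with WT in limma on log2(FPKM + 0.1) over the 12990 features whose mean reached 0.5 FPKM, with Benjamini-Hochberg adjustment over all of them. A gene is said to have passed the test at an adjusted p under 0.05, and to be called when its change was also greater than 2-fold. Fold changes on this scale understate the change of low genes. Of the 10 members 9 were tested, and *Sox9* was below the minimum. *Sox1*, *Sox3*, *Sox4* and *Sox11* rose, which is 4 of the 9, and 0 fell, where over all tested features 6.85% passed as higher and 5.60% as lower. *Sox1*, *Sox3* and *Sox11* were called, against 2.72% of all features called higher and 1.42% called lower. Because the members were chosen with earlier results known, setting them beside these shares is descriptive and is no test. In 5 members the lower KO library exceeded the higher WT library, an arrangement found for 27.0% of all tested features, and in 2 members the reverse held, as for 31.7%. The median log2 fold change of the 9 was 0.67, beside -0.02 over all tested features, but it was 0.40 with a pseudocount of 1 and 0.34 with a minimum of 1 FPKM. *Sox21* reached the minimum only through its KO libraries.

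**Figure D2:**
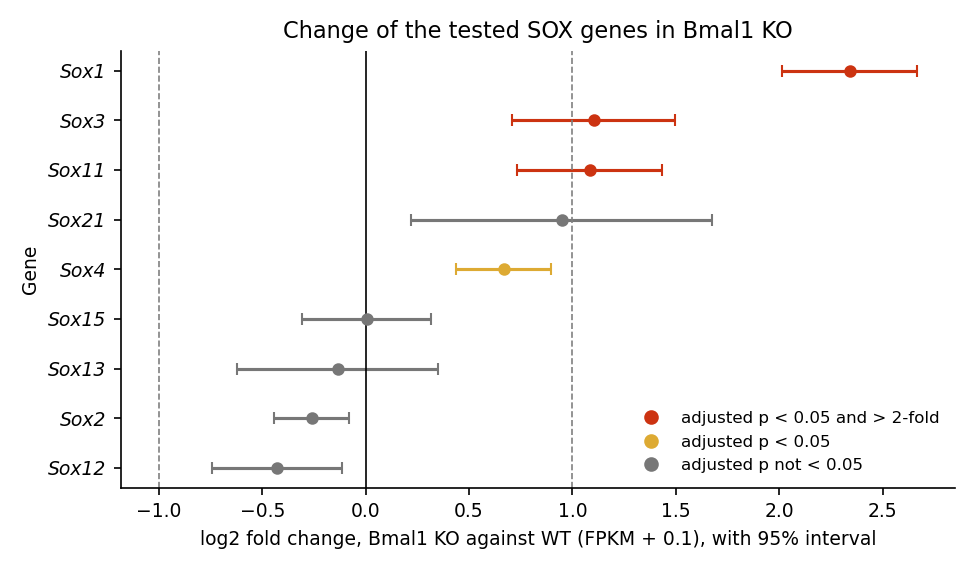
log2 fold change of FPKM + 0.1 between *Bmal1* KO and WT for the 9 tested SOX genes, with the 95% interval from limma as bars, red for called genes, yellow for a gene that passed the test below 2-fold and grey for the rest; dashed lines mark 2-fold. *Sox1* stands at 2.34, *Sox3*, *Sox11*, *Sox21* and *Sox4* between 0.67 and 1.10, *Sox15* at 0.00, and *Sox13*, *Sox2* and *Sox12* at -0.14 to -0.43.

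Among the SoxB1 genes, the 2 that are low in ESCs rose in KO and the abundant one did not. *Sox1* (ENSMUSG00000096014.1), a gene of 1 exon (chromosome 8, plus strand, 12395295 to 12400126, GRCm38), had 1.32 and 1.38 FPKM in WT and 6.91 and 7.61 FPKM in KO. Both of its KO libraries were far above both WT libraries, with a fitted fold of 5.07 and a 95% interval of the log2 fold change of 2.02 to 2.67 (limma adjusted p = 0.00169). In rank, *Sox1* went from the 41.1 percentile of features with a symbol in WT to the 60.8 percentile in KO. *Sox3* (ENSMUSG00000045179.9), which is active in neural progenitors and has 1 exon on the minus strand of chromosome X from 60891366 to 60893430, had 1.67 and 1.42 FPKM in WT and 3.60 and 3.25 FPKM in KO. The groups did not overlap and the log2 fold change was 1.10 ± 0.16 (SE; limma adjusted p = 0.0133). Its fold change is near the 2-fold line: it passed the test under every alternative tried, but the log2 fold change was 0.80 with a pseudocount of 1, and without WT replicate 2 it was just under 2-fold.

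*Sox2* (ENSMUSG00000074637.7), which ESCs need for self-renewal, has 1 exon on the plus strand of chromosome 3 from 34650405 to 34652461 and had 277 and 295 FPKM in WT and 238 and 239 FPKM in KO. Both KO libraries were below both WT libraries, by 1.20-fold, with a log2 fold change of -0.26 and a 95% interval of -0.44 to -0.08. It did not pass the test adjusted over all features (limma adjusted p = 0.0754). Among features with a symbol, *Sox2* was at percentile 98.1 in WT and 97.8 in KO.

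The balance of the SoxB1 genes was then measured within each library, where the scaling of a library largely cancels. Per unit of length, *Sox2* stood 210 and 213 times above *Sox1* in WT but 34.4 and 31.4 times above it in KO. On the scale of log2(FPKM + 0.1), used for the differences that follow, the ratio of *Sox1* to *Sox2* differed by 2.60 between the genotypes, which is 6.07-fold, where replicates differed by at most 0.13. *Sox2* exceeded *Sox3* 166 and 207 times in WT and 65.9 and 73.7 times in KO, a difference of 1.36 in the log2 ratio. *Sox1* and *Sox3* also shifted against each other: *Sox1* was the lower of the pair in both WT libraries (log2 ratio -0.32 and -0.04) and the higher in both KO libraries (0.92 and 1.20), a difference of 1.24. In each of the 3 pairs the gap between genotypes was larger than the gap between replicates. The two-sided exact permutation test gave p = 0.333 for each pair (adjusted over the 3 pairs, 0.333), which is the smallest p that 2 against 2 libraries allow.

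**Figure D3:**
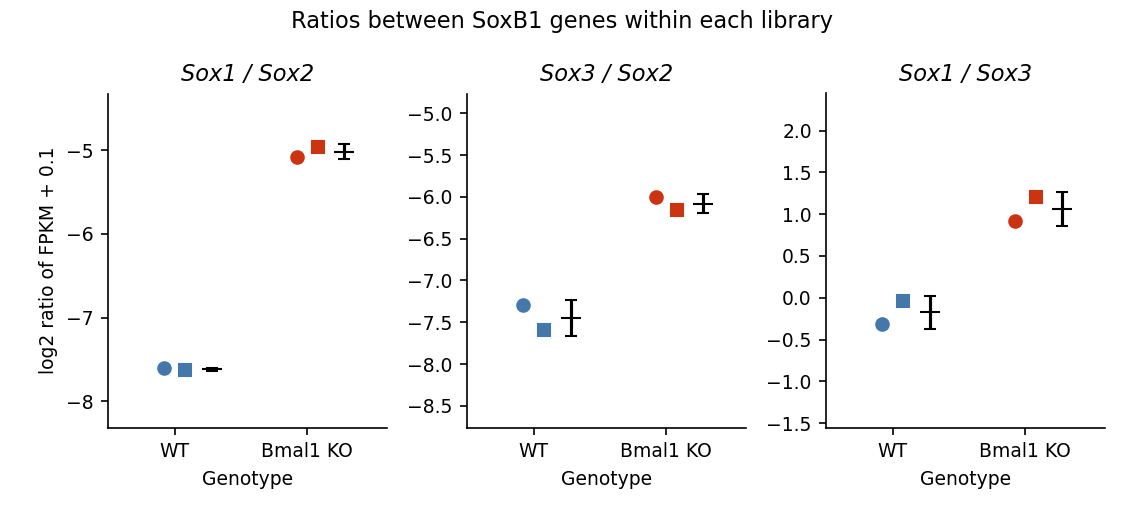
log2 ratio of FPKM + 0.1 between each pair of SoxB1 genes within each library, with circles for replicate 1, squares for replicate 2, and the mean and SD of the 2 libraries in black beside them; each panel spans 4 log2 units. The KO libraries lie above the WT libraries in every panel, by 2.60 for *Sox1* to *Sox2*, 1.36 for *Sox3* to *Sox2* and 1.24 for *Sox1* to *Sox3*.

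Summed over the subgroup, *Sox2* supplied nearly all SoxB1 RNA in both genotypes. SoxB1 FPKM came to 280 and 298 in WT and 248 and 249.9 in KO, of which *Sox1* and *Sox3* together supplied 2.98 and 2.81 FPKM in WT and 10.5 and 10.9 FPKM in KO. The share of *Sox2* in the subgroup was 98.9% and 99.1% in WT and 95.8% and 95.7% in KO. In bulk RNA, a change in the number of cells that hold a transcript and a change in its level per cell cannot be told apart, so a few cells with much *Sox1* and many cells with a little of it would give the same values.

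*Sox21* (ENSMUSG00000061517.8), the SoxB2 antagonist, lies on the minus strand of chromosome 14 from 118233232 to 118237030. It was the lowest of the tested members and near the minimum of 0.5 FPKM, with 0.357 and 0.394 FPKM in WT and 0.953 and 0.696 FPKM in KO. Both KO libraries were above both WT libraries, and the log2 fold change was 0.95 with a 95% interval of 0.22 to 1.68, but it did not pass the test (limma adjusted p = 0.0963). At 0.5 to 1 FPKM the replicates of a feature differed with a median SD of 0.26 on the log2 scale, beside 0.07 above 100 FPKM.

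Of the SoxC genes, *Sox4* and *Sox11* rose and *Sox12* did not. *Sox4* (ENSMUSG00000076431.4; chromosome 13, minus strand, 28948919 to 28953713) had 9.52 and 9.18 FPKM in WT and 14.3 and 15.6 FPKM in KO. *Sox11* (ENSMUSG00000063632.6; chromosome 12, minus strand, 27334264 to 27342574) had 1.71 and 1.58 FPKM in WT and 3.66 and 3.54 FPKM in KO. Both are known from differentiating neurons, and both were higher in each KO library than in each WT library. *Sox4* rose 1.59-fold (log2 fold change 0.67 ± 0.09, SE; limma adjusted p = 0.0119), short of 2-fold. *Sox11* rose 2.12-fold (1.08 ± 0.14; limma adjusted p at most 0.0334 over the alternatives tried) and, like *Sox3*, fell below 2-fold with a pseudocount of 1.

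*Sox12* (ENSMUSG00000051817.8; chromosome 2, minus strand, 152393611 to 152398063), the most abundant SoxC gene in these cells, had 34.2 and 28.1 FPKM in WT and 24.7 and 21.4 FPKM in KO. The KO libraries were the lower ones, without overlap, with a log2 fold change of -0.43 and a 95% interval of -0.74 to -0.11, and the gene did not pass the test (limma adjusted p = 0.0865). The log2 fold change was -0.57 without WT replicate 2 and -0.53 without KO replicate 1. It was -0.29 without WT replicate 1 and -0.32 without KO replicate 2. Over the 3 genes, SoxC FPKM summed to 45.4 and 38.8 in WT and 42.7 and 40.5 in KO, so the sums overlapped while the composition differed. *Sox12* supplied 75.3% and 72.3% of them in WT and 57.9% and 52.8% in KO, *Sox4* went from 21.0% and 23.6% to 33.5% and 38.4%, and *Sox11* from 3.77% and 4.08% to 8.57% and 8.75%.

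For the remaining members no difference was seen beyond the replicate spread. *Sox13* (ENSMUSG00000070643.11; chromosome 1, minus strand, 133382303 to 133424377), a SoxD gene of up to 14 exons, had 7.86 and 5.67 FPKM in WT and 6.87 and 5.36 FPKM in KO. Its replicates differed more than its genotypes, and the 95% interval of the log2 fold change ran from -0.62 to 0.35, within which a change was not detectable. *Sox15* (ENSMUSG00000041287.5; chromosome 11, plus strand, 69655314 to 69656727), which is expressed in ESCs and in muscle precursors, had 7.56 and 8.90 FPKM in WT and 8.79 and 7.71 FPKM in KO. Its groups overlapped and its log2 fold change was 0.00, with a 95% interval of -0.31 to 0.32 and a sign that turned with quantile normalization. *Sox9* (ENSMUSG00000000567.5; chromosome 11, plus strand, 112782224 to 112787760) had 0.0197 and 0.0106 FPKM in WT and 0.0219 and 0.0107 FPKM in KO, too low to be tested.

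The family genes outside the 10 were all low. Of the other 10, *Sry* and *Sox14* have no row in these tables, and of the 8 that have one *Sox18* alone reached the minimum of 0.5 FPKM. It did so only through its KO libraries. *Sox18*, a SoxF gene of endothelial development named after its value was seen, had 0.547 and 0.159 FPKM in WT and 0.915 and 0.753 FPKM in KO. The WT libraries were far apart, and the difference did not pass the test (log2 fold change 1.18 ± 0.48, SE; limma adjusted p = 0.170). *Sox7*, another SoxF gene, chosen in the same way and too low to be tested, had 0.260 and 0.247 FPKM in WT and 0.709 and 0.627 FPKM in KO. The remaining 6 genes were at or below 0.199 FPKM in every library.

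4 members are listed at the same coordinates as another feature, so that the assignment of fragments between overlapping transcripts is uncertain there. The *Sox1* row spans 12385771 to 12436732 on chromosome 8 together with *Gm5607*, a synonym of the *Sox1* overlapping transcript *Sox1ot* in RefSeq. *Gm5607* had 0.0956 and 0.0799 FPKM in WT and 0.448 and 0.405 FPKM in KO, too low to be tested but higher in both KO libraries. *Sox1* exceeded it 13.8 and 17.3 times in WT and 15.4 and 18.8 times in KO, so the ratio of the pair overlapped between genotypes.

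At the *Sox2* locus, the row that merges *Sox2ot* with *Mir1897* spans 34560381 to 34678094 on chromosome 3 and had 0.460 and 0.342 FPKM in WT and 0.806 and 0.520 FPKM in KO. It was higher in KO without overlap but did not pass the test (log2 fold change 0.59 ± 0.34, SE; limma adjusted p = 0.303). This row reached the minimum of 0.5 FPKM only through KO. At the *Sox21* locus, *LOC105245869* (118233234 to 118261199) had 0.127 and 0.187 FPKM in WT and 0.935 and 0.884 FPKM in KO. It rose (log2 fold change 1.98 ± 0.33, SE; limma adjusted p = 0.0186) and was called, although without KO replicate 1 its adjusted p was 0.0537 and with a pseudocount of 1 its log2 fold change was 0.72, below 2-fold, and, as with *Sox21*, it reached the minimum only through KO. *Mpdu1*, a glycosylation gene that shares its row coordinates with *Sox15* and lies on the opposite strand, had 80.3 and 81.2 FPKM in WT and 82.9 and 76.3 FPKM in KO, which overlapped. By GENCODE positions the 2 genes share only the bases from 69656697, where *Mpdu1* begins, to 69656727, where *Sox15* ends. Whether the libraries kept the strand is not given in the sources used here, so reads within these shared bases may not have been told apart.

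**Figure D4:**
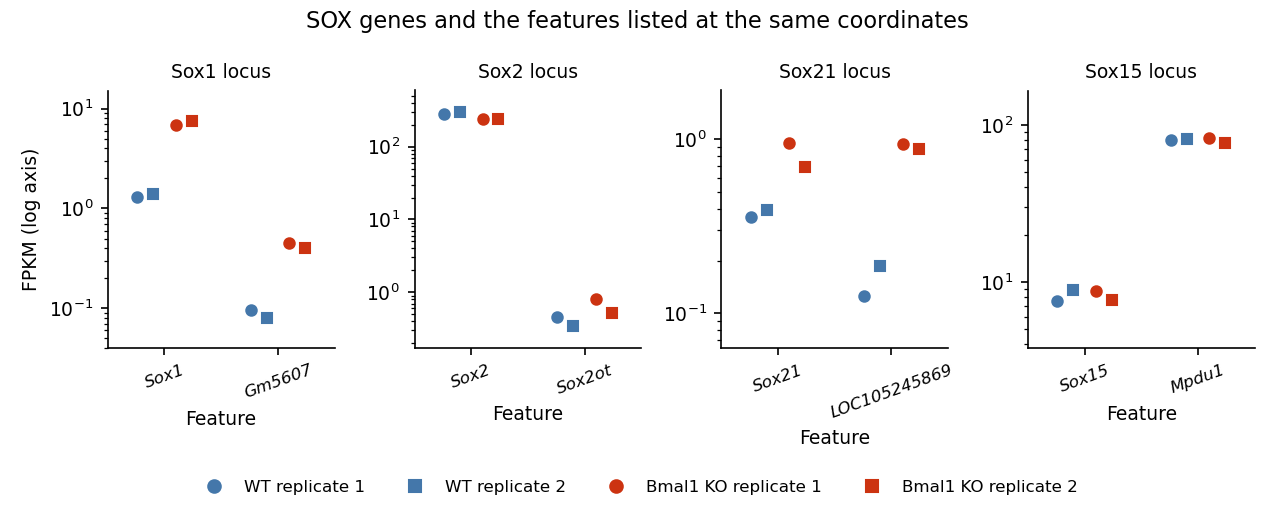
FPKM on log axes, 1 panel for each of the 4 SOX genes that share their listed coordinates with another feature, with blue for WT, red for *Bmal1* KO, circles for replicate 1 and squares for replicate 2. *Gm5607* and *LOC105245869* lie higher in KO along with *Sox1* and *Sox21*, *Sox2ot* lies higher in KO where *Sox2* lies lower, and *Sox15* and *Mpdu1* overlap between genotypes.

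Genes around the called members had median changes near 0, where neighbours were taken among tested features that have a symbol. Of the 10 tested features nearest to *Sox1*, 5 on each side, 0 were called and their median log2 fold change was 0.00, between -0.47 and 0.23. Around *Sox3* 0 of 10 were called, with a median of 0.04. The 408 tested features of chromosome X that have a symbol had a median of -0.02. The 10 features spanned 13007 kb around *Sox3*, beside 1652 kb around *Sox1*, so those of *Sox3* are not close neighbours. Around *Sox11* the median was 0.05, and 1 neighbour was called, *Id2*, an inhibitor of basic helix-loop-helix factors (log2 fold change 1.45; limma adjusted p = 0.00410; named after its value was seen). Medians around the other tested members lay between -0.10 (*Sox12*) and 0.22 (*Sox21*, over 14401 kb). The called neighbours there were *Nrsn2* by *Sox12* (log2 fold change -1.05), *Lrrn2* by *Sox13* (-1.72), *Fgf11* by *Sox15* (1.18) and *LOC105245869* by *Sox21* (1.98). The first 3 of these are named after their values were seen.

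Features with the most similar pattern were sought for the SoxB1 genes among 10986 tested features with a symbol and a mean of at least 1 FPKM, by the Euclidean distance between log2 values centred over the 4 libraries. With 4 libraries in 2 groups, this distance mostly reflects the size of the change between genotypes. Nearest to *Sox1* were *Fam107b* (distance 0.14), *G0s2* (0.23), an inhibitor of triglyceride lipolysis, and *Smoc1* (0.25), a secreted calcium-binding protein. *Fam107b* had 1.03 and 1.26 FPKM in WT and 5.76 and 6.33 FPKM in KO. *G0s2* (0.432 and 0.447 FPKM in WT) and *Smoc1* (0.505 and 0.511 FPKM in WT) reached the mean of 1 FPKM only through KO. Among the features nearest to *Sox3* were *Parvb* (0.04) and *Sorbs3* (0.06), a pair of adhesion proteins. *Sox2* had closer neighbours, *Cpox* (0.01) of haem synthesis, *Gemin6* (0.01) and *Dnajc17* (0.02).

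Promoters of 8 members were found in RefSeq (build GRCm38.p6), each with 250 bases before and 50 bases after the start of transcription. CACGTG, the E-box that CLOCK and BMAL1 bind, was looked for on both strands and was in 0 of the 8 windows, where 7.15% of 32851 promoters hold it. The SOX core motif ACAAT was in 1 of the 8, that of *Sox15*, and in 31.0% of all promoters. The octamer ATGCAAAT, bound by POU factors, was in 2 of the 8 and in 1.74% of all promoters. These 2 windows are printed, 5′ to 3′ in the direction of the gene with the octamer in capitals, because *Sox1* was the member that rose most and *Sox12* the one with the lowest log2 fold change. The *Sox1* window lies at chr8:12395526-12395555 on the plus strand and begins its octamer at base 19 after the RefSeq start. The *Sox12* window lies at chr2:152398223-152398252 on the minus strand and begins its octamer 195 bases before the start.
Sox1: gccagcgcgccATGCAAATcaccgccgccg
Sox12: gcgattgggagATGCAAATgctgagttctc
Across the 8 windows the GC content ran from 52.0% for *Sox4* to 76.7% for *Sox12*, against a median of 52.7% over all promoters. *Sox1* had 37 CG dinucleotides, *Sox2* 27 and *Sox11* 21, against 47 for *Sox12*, 5 for *Sox15* and a median of 7 over all promoters. *Sox3* and *Sox9* had no entry.

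Genes that work with the family were counted from lists by role. The lists were chosen with earlier results of these data known, so their counts are descriptive. These counts are to be read beside the tested features as a whole, of which 6.85% passed as higher and 5.60% as lower. Called features made up 2.72% as higher and 1.42% as lower. Genotypes without overlap were found in 27.0% of tested features with KO as the higher one, and in 31.7% with KO as the lower. Of 18 pluripotency partners and shared targets of SOX2, all tested, 4 rose, 3 fell and 11 did not pass, with a median log2 fold change of 0.00. *Nr0b1*, a nuclear receptor of the ESC network, had 127 and 123 FPKM in WT and 187 and 176 FPKM in KO and rose (log2 fold change 0.54 ± 0.07, SE). *Lefty1*, a NODAL inhibitor, had 18.9 and 15.9 FPKM in WT and 34.3 and 24.5 FPKM in KO (0.74 ± 0.18). *Klf4*, a reprogramming factor, was at 58.4 and 55.0 FPKM in WT and at 41.3 and 40.9 FPKM in KO (-0.46 ± 0.07).

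*Utf1*, a chromatin-bound target of SOX2 and POU5F1, was at 693 and 635 FPKM in WT and at 531 and 457 FPKM in KO (-0.43 ± 0.10). These 4 genes differed by less than 2-fold, with limma adjusted p of 0.0109 for *Nr0b1*, 0.0486 for *Lefty1*, 0.0177 for *Klf4* and 0.0491 for *Utf1*. *Lefty1*, *Utf1* and *Klf4* missed the threshold under 3, 6 and 1 of the 13 alternatives. The count of 7 for this list was 1 with no variance trend, 3 with no filter on low values, and 3 when either KO library was left out.

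Of 30 neural partners of SoxB1 and neural progenitor genes 16 were tested, of which 6 rose, 2 fell and 8 did not pass, and the median log2 fold change was 0.40. The tested genes and the median include *Zfp521*, *Neurod1* and *Cdh2*, which reached the minimum only through KO. The risers were *Pou3f1*, *Pax6*, *Msi1*, *Neurod1*, *Vim* and *Zfp521*, and *Otx2* and *En2* fell. Apart from *Vim*, the risers were at or below 8.92 FPKM in every library. *Zfp521*, a zinc-finger factor that promotes neural fate, had 0.133 and 0.0496 FPKM in WT and 1.09 and 1.10 FPKM in KO, so that it reached the minimum only through KO (log2 fold change 2.68 ± 0.37, SE; limma adjusted p = 0.0119). *Neurod1*, a proneural factor, had 0.423 and 0.517 FPKM in WT and 2.02 and 2.72 FPKM in KO (2.11 ± 0.24; limma adjusted p = 0.00746), again below the minimum in WT. *Pax6*, a partner of SOX2 in the eye and neural tube, had 0.466 and 0.859 FPKM in WT and 2.28 and 2.36 FPKM in KO (1.72 ± 0.29; limma adjusted p = 0.0198). These 3 were called, with no overlap between groups, but *Pax6* missed the threshold with no filter on low values (adjusted p = 0.0536) and *Zfp521* was below 2-fold with a pseudocount of 1 (log2 fold change 0.94).

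Against them, *En2*, a homeobox gene of the midbrain, had 6.82 and 5.39 FPKM in WT and 3.05 and 2.99 FPKM in KO and fell by 0.98 on the log2 scale (limma adjusted p = 0.0147). *Neurog1*, *Neurog2*, *Six3*, *Zic1* and *Pou3f2*, picked as examples from the 14 that were not tested after their values were seen, were below 0.1 FPKM in every library. The count of 8 for this list was 5 with no filter on low values.

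Of 10 neuronal genes, among them *Tubb3* and *Tead2*, which SoxC proteins activate, 8 were tested, 0 rose and 2 fell, with a median log2 fold change of -0.17. *Stmn2*, a microtubule regulator of growing axons, had 153 and 172 FPKM in WT and 82.9 and 90.6 FPKM in KO, and fell by 0.90 on the log2 scale (SE 0.09; limma adjusted p = 0.00566). *Tubb3*, the neuronal β-tubulin, had 130.4 and 124 FPKM in WT and 82.5 and 74.0 FPKM in KO, and fell by 0.70 (SE 0.08; limma adjusted p = 0.00827). *Tead2* did not pass (log2 fold change -0.23; limma adjusted p = 0.347), nor did *Nefl* (0.40; limma adjusted p = 0.0677) and *Mapt* (0.43; limma adjusted p = 0.111), which were higher in both KO libraries and are named after their values were seen. Of 16 cartilage, crest and glial genes linked to SoxE and SoxD, 6 were tested and 0 passed, and the 10 others either have no row or were low. With only 6 genes tested, a count of 0 cannot be told apart from the shares that passed over all tested features.

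**Figure D5:**
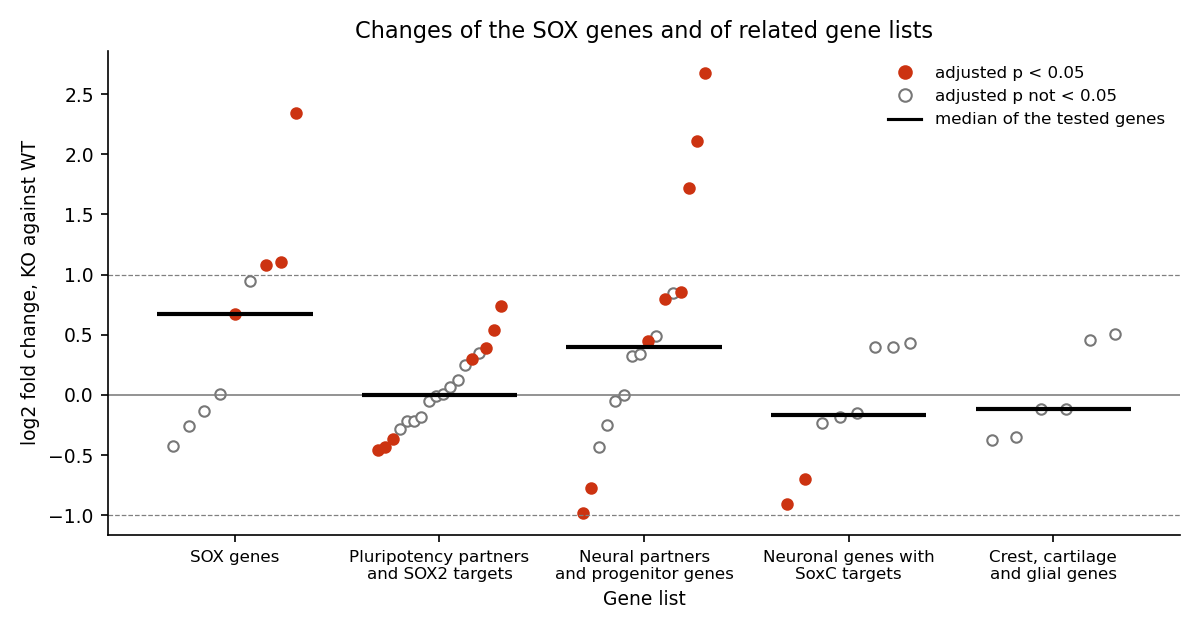
log2 fold change between *Bmal1* KO and WT of each tested gene, by list, ranked within a list, with filled red points for genes that passed the limma test, open points for the rest and a black line at the median; dashed lines mark 2-fold. The medians are 0.67 for the SOX genes, 0.00 for pluripotency partners, 0.40 for neural partners, -0.17 for neuronal genes and -0.12 for crest, cartilage and glial genes, beside -0.02 over all tested features. They include *Sox21*, *Zfp521*, *Neurod1* and *Cdh2*, which reached the minimum for testing only through KO.

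The libraries carried ESC transcripts in both genotypes. All 5 ESC markers (*Pou5f1*, *Nanog*, *Zfp42*, *Esrrb*, *Klf2*) were above 1 FPKM in every library and summed to 2988 and 2843 FPKM in WT and 2867 and 2672 FPKM in KO. *Arntl*, the targeted gene, had 6.05 and 6.29 FPKM in WT and 5.95 and 5.92 FPKM in KO, and a short deletion that leaves the RNA in place is not checked by its level. Of 12 fibroblast markers 9 have a row, with sums of 78.2 and 72.7 FPKM in WT and 111 and 101 FPKM in KO, nearly all from *Fn1*, which rose (log2 fold change 0.50; limma adjusted p = 0.0206). *Thy1* (1.69 and 1.54 FPKM in WT, 2.73 and 2.11 in KO) and *Twist1* (3.04 and 3.14 in WT, 3.34 and 3.66 in KO) were also higher in both KO libraries without passing the test, while *Col1a1*, *Col1a2*, *Col3a1* and *Dcn* were at or below 0.217 FPKM. *Pdgfra* and *Pdgfrb*, too low to be tested, were higher in both KO libraries as well, at or below 0.400 FPKM. The 7 endoderm markers summed to between 8.44 and 10.2 FPKM, led by *Lama1* (7.24 to 9.32 FPKM). The 7 trophoblast markers with a row summed to between 31.7 and 37.0 FPKM, led by *Krt8* (16.7 to 23.1 FPKM). *Lama1*, *Krt8* and *Gata4* were lower in both KO libraries without passing the test. *Gata6*, *Afp* and *Cdx2* were at or below 0.168 FPKM, and *Cdx2* was lower in both KO libraries. *Dab2*, *Foxa2*, *Cubn* and *Gata3*, too low to be tested, were higher in both KO libraries, at or below 0.343 FPKM. Among the trophoblast markers *Tfap2c* rose (log2 fold change 0.78; limma adjusted p = 0.0187) and *Eomes* fell by 1.73 on the log2 scale (limma adjusted p = 0.0154). Their part in the changes of the SOX genes was not tested. Features without a symbol took 26.8% and 37.3% of summed FPKM in WT and 19.0% and 18.1% in KO, but median-of-ratios factors of the libraries were between 0.998 and 1.01, and the changes of *Sox1*, *Sox3*, *Sox4* and *Sox11* passed under both other scalings tried.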

How the data were processed

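The deposited values are FPKM per feature for 2 WT and 2 *Bmal1* KO libraries of rRNA-depleted total RNA. The authors used Bowtie2 2.3.0 and TopHat 2.1.1 for alignment to GRCm38, and Cufflinks 2.2.1 to obtain FPKM, as the submitters' processing notes list them. FPKM hold no read number, so depth is unknown and precision was judged from the replicate spread. From them, log2(FPKM + 0.1) was tested for the 12990 of 19645 features with a mean of at least 0.5, in limma 3.58.1 (R 4.3.3) with a variance trend and Benjamini-Hochberg adjustment, after a test on simulated data. Ratios and sequences were handled with scipy 1.17.1, pandas 2.3.3, biopython 1.88 and numpy 2.4.6 in Python 3.11.15, and figures with matplotlib 3.10.9. Starts in the files count from 0 and were raised by 1; gene positions are those of GENCODE vM21. The members and lists were chosen with earlier results of these data known. Named were all members, features at their coordinates, the 3 nearest patterns to each SoxB1 gene, and up to 4 genes a list with the largest log2 fold change among those that passed without overlap; others are marked, and 1 of the nearest patterns is not reported here. The 13 alternatives were 9 settings and the omission of each library.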

Additional observations from a re-analysis of the deposited data

How the results depend on the processing

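The limma results of the members and lists were recomputed without a filter on low values, with a pseudocount of 1 or 0.01, a minimum of 1 FPKM, quantile or median-of-ratios scaling, the replicate number as a block, no variance trend, FPKM summed by symbol, and without each library, and the SoxB1 ratios under 7 of these (both pseudocounts, summing by symbol and each omission), where their differences kept their direction. *Sox1*, *Sox3*, *Sox4* and *Sox11* passed the limma test under all of these. The number of members called higher was 1 with a pseudocount of 1, in place of 3, and ran from 2 to 3 when 1 library was left out; the number called lower was 0 throughout. The median log2 fold change of the members was 0.34 with no filter, 0.34 with a minimum of 1 FPKM and 0.40 with a pseudocount of 1. Values near 0 changed sign: without 1 library *Sox13* ran from -0.37 to 0.10, positive without WT replicate 1 (0.10) and KO replicate 2 (0.04), and *Sox15* from -0.11 to 0.12, negative without WT replicate 1 (-0.11) and KO replicate 1 (-0.09), and *Sox15* was at -0.0049 with quantile normalization. The number of genes that passed was 3 with no filter and 1 with no variance trend for the pluripotency list, 5 with no filter for the neural list and 1 with no filter for the crest list. Leaving out 1 library gave 3 to 5 for the pluripotency list and 0 to 1 for the other SOX genes. *Sox21* passed with no variance trend (adjusted p = 0.0469). The causes of these shifts were not tested. WT and KO share replicate numbers, and over features the deviations of same-numbered libraries correlated at Pearson r = 0.0712 and Spearman rho = 0.387, but with 2 pairs this does not establish a pairing, and no source says that equal numbers were processed together. With the replicate block, *Sox2* (adjusted p = 0.0140) and *Sox12* (0.00513) passed as lower, and 13 pluripotency, 5 neuronal and 1 crest genes passed, while over all 12990 features 4052 passed in place of 1618. The depth of the libraries is unknown, so how far it limits low values such as those of *Sox21* and *Sox9* cannot be given.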
